A study of Mus musculus with 11 samples.

Results

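The 9 genes described here are listed enzymes, transporters and a regulator of hepatic glucose output and glycogen storage: Fbp1, G6pc, Pck1, Pcx, Slc37a4, Slc2a2, Gys2, Pygl and Ppargc1a. They were taken by name from the 27962 gene names on a mouse expression array, all 9 were among the 16704 genes that could be tested, and their 12 probes all passed the filter on dim probes. Normal mouse liver was profiled at 4 stages of development on 11 arrays with 2 colours. The embryonic groups were liver of embryonic day 14, here E14.5, on 3 arrays whose labels give hepatoblasts as the cell type, and liver of embryonic day 18, here E18.5, on 3 arrays whose labels give immature hepatocytes. The postnatal groups were liver of day 5 after birth (P5) on 2 arrays, replicates 2 and 3, and adult liver of day 56 (P56) on 3 arrays. The labels give the days as 14 and 18, while the results text of the study writes E14.5 and E18.5. The source given for every array is liver, and the methods also describe hepatoblasts and immature hepatocytes purified from C57BL/6 embryos, so whether an embryonic array holds whole liver or purified cells is not settled. No strain, genotype or treatment is given for the whole livers. Liver RNA carried the dye Cy5, commercial RNA of normal adult mouse liver carried Cy3 on every array, and the dyes were not swapped.

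Gluconeogenesis makes glucose from lactate, glycerol and amino acids and runs mainly in liver and kidney. Pyruvate carboxylase (Pcx) and cytosolic phosphoenolpyruvate carboxykinase (Pck1) carry pyruvate past the irreversible step of glycolysis, fructose-1,6-bisphosphatase (Fbp1) removes a phosphate from fructose-1,6-bisphosphate, and glucose-6-phosphatase (G6pc), fed by the glucose-6-phosphate transporter (Slc37a4), releases free glucose. Before birth the fetus takes glucose from the mother and stores hepatic glycogen, and after birth the liver must supply glucose itself, first from glycogen and then by synthesis.

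For 8 of the 9 genes RefSeq promoter sequences (assembly GRCm38.p6) were at hand, and Gys2 had no entry. The 250 bases before the start are shown for Fbp1 and Pck1, which rose at different stages, and for G6pc, the enzyme that completes the pathway. Capitals mark matches to 7 short motifs that were searched on both strands of the whole windows, which also hold 50 bases after the start. The regions shown are chr13:62888283-62888532 on the minus strand for Fbp1, chr2:173152823-173153072 on the plus strand for Pck1 and chr11:101367466-101367715 on the plus strand for G6pc.
Fbp1: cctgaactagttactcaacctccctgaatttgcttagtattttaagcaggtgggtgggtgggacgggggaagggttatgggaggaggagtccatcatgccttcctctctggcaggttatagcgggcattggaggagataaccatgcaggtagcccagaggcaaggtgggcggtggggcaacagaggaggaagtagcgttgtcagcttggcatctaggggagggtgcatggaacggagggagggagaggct
Pck1: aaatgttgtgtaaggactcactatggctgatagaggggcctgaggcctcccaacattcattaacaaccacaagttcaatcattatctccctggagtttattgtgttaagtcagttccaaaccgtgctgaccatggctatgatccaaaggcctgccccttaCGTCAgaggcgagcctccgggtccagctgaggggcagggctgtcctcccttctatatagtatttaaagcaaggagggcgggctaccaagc
G6pc: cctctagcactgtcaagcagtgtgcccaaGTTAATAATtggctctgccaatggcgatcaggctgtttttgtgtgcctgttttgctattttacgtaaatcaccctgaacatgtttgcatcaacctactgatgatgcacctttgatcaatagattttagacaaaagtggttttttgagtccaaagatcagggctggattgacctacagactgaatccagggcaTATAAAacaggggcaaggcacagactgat
In the Pck1 promoter the capitals are CGTCA, the core of the cAMP response element, from 90 to 86 bases before the start. In the G6pc promoter they are an HNF1 motif, GTTAATNAT, from 221 to 213 bases before the start, and a TATA box, TATAAA, from 29 to 24 bases before it. No motif of the search matched in the Fbp1 window. A gene can have several starts, and the 8 genes had 11 windows. This core stood in 5 of the 11 windows, those of 4 of the 8 genes (Pck1, Ppargc1a, Pygl and Slc37a4), and in 20.8% of all 32851 windows of the table, or 23% of its 27025 genes. The TATA box stood in 2 of the 11 windows, of G6pc and Slc37a4, and in 13.6% of all windows, and the HNF1 motif in 1, of G6pc, and in 0.801% of all windows. The full cAMP response element TGACGTCA, which holds this core, the forkhead motif TGTTTAC, the C/EBP motif TTGCNNAA and the HNF4 motif CAAAGTCCA matched in none of the members' windows, against 1.79%, 3.65%, 10.8% and 0.475% of all windows.

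Each value below is a log2 ratio of liver to the adult reference, normalized by loess within its array, so 0 is the level of the reference and a ratio says nothing of one gene's level against another's. A fold change is a difference of such ratios between stages, tested with limma over all 11 arrays, and a gene was called at a Benjamini-Hochberg adjusted p under 0.05 over the 16704 genes. Spots well above background in Cy5 numbered 22027 to 25718 of 43379 on the arrays of E14.5, E18.5 and P5, and 16790 to 23079 at P56. Pearson's r between replicates over genes was 0.969 to 0.99 within the embryonic stages, 0.901 at P5 and 0.827 to 0.937 at P56. The number of arrays limits the precision. The labels call the arrays biological replicates without saying whether animals were pooled. Of 13 hepatocyte markers, including albumin and transthyretin, all were above background on every array, and their mean log2 ratio lay between -3.34 and -3.15 on E14.5 arrays, -0.32 and -0.23 on E18.5 arrays, -0.46 and -0.41 on P5 arrays, and -1.04 and -0.59 on P56 arrays. The labelled tissue thus expressed its defining genes at every stage.

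**Figure D1:**
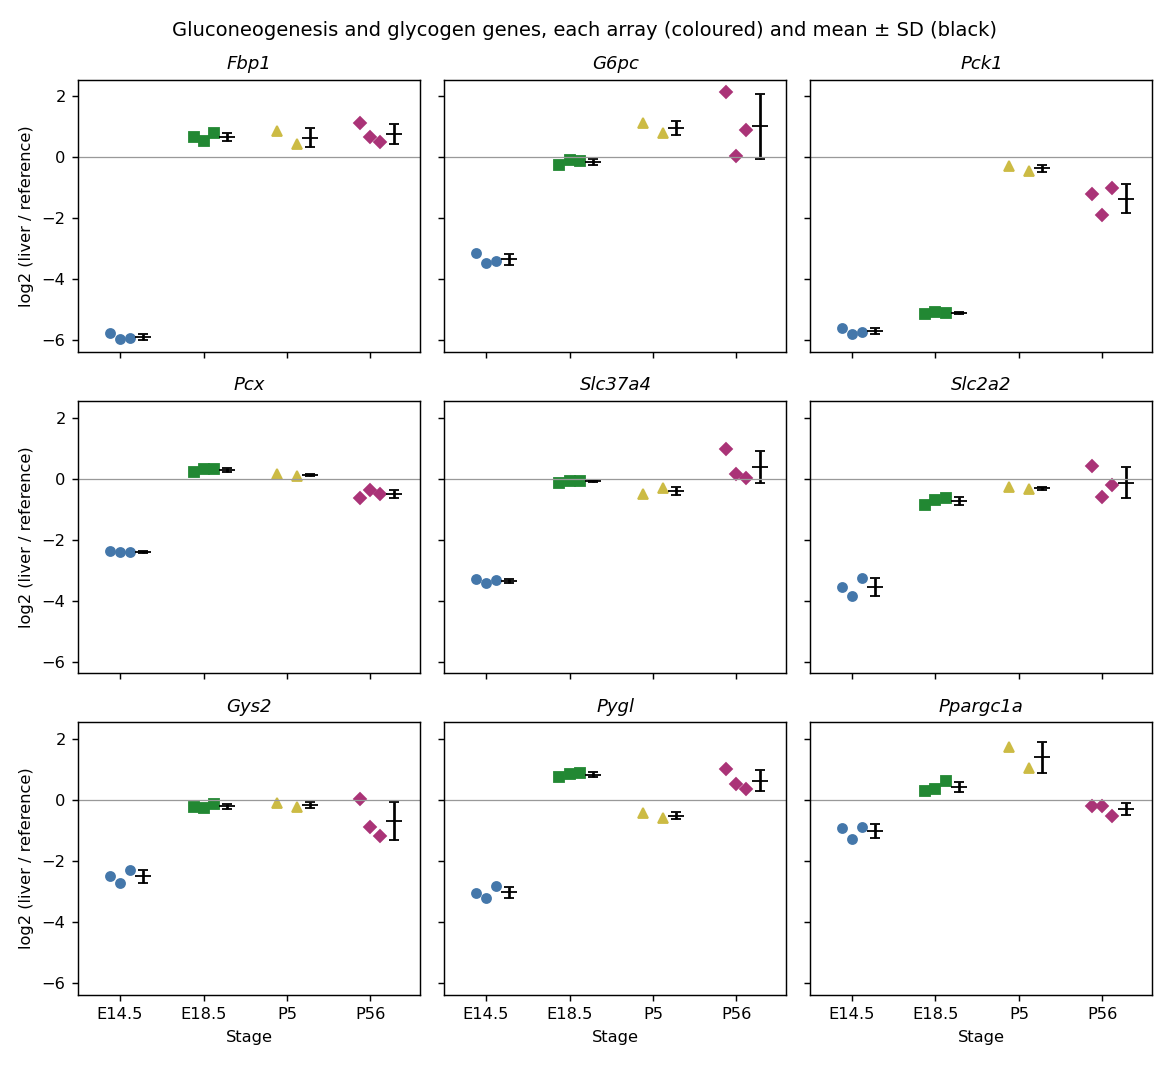
Log2 ratio of liver to the adult reference (vertical axis) on each array by stage (horizontal axis) for the 9 genes, with the mean and SD of each stage in black and the reference level as a grey line. Every E14.5 array lay below every later array for all 9 genes, a pattern whose share among all tested genes was not counted. Of the 9 genes, Pck1 alone was still more than 5 log2 units below the reference at E18.5.

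Fbp1 made the largest change of all 16704 genes between E14.5 and E18.5. Its ratio was -5.77, -5.95 and -5.92 on the 3 E14.5 arrays and 0.66, 0.54 and 0.79 on the 3 E18.5 arrays. Later it was 0.86 and 0.44 on the P5 arrays and 1.13, 0.66 and 0.51 on the P56 arrays. The E14.5 arrays stood apart from all others at about 1.7% of the reference, and the arrays of the 3 later stages overlapped. The rise to E18.5 was 6.54 ± 0.16 on the log2 scale (SE, adjusted p = 5.05e-10), or 93.2-fold. From E18.5 to P5 the change was -0.01 (95% interval -0.40 to 0.38), and from E18.5 to P56 it was 0.10 (-0.25 to 0.45). The Cy5 spot was saturated on P5 replicate 2 and P56 replicate 1, so these values are lower bounds. Fbp1 also belongs to the RXR-α genes that the study used as a signature, so its rise there is not a separate piece of evidence.

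Pck1, the enzyme that is often taken as rate-limiting for gluconeogenesis, followed another course. The ratio was -5.60, -5.78 and -5.71 on the E14.5 arrays, and -5.14, -5.07 and -5.11 on the E18.5 arrays. After birth it was -0.28 and -0.44 on the P5 arrays, and -1.19, -1.89 and -0.99 on the P56 arrays. Both embryonic stages lay at 1.93% and 2.9% of the reference, both P5 arrays were above all P56 arrays, and no 2 stages overlapped. The change from E18.5 to P5 was 4.75 ± 0.20 (SE, adjusted p = 2.92e-07), 26.9-fold, and it ranked 2 among all genes by size, after Sult2a2. The earlier step from E14.5 to E18.5 was 0.59 ± 0.18 (adjusted p = 0.0196). This small step lost its call without E14.5 replicate 2 or 3 or E18.5 replicate 2 or 3, with log2 fold changes of 0.54, 0.58, 0.57 and 0.59, while the rise at P5 was called under every alternative setting, between 4.39 and 5.07. From P5 to P56 Pck1 fell by 1.00 (SE 0.20, adjusted p = 0.00193).

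G6pc rose before birth, with ratios of -3.14, -3.48 and -3.39 on the E14.5 arrays and -0.25, -0.09 and -0.12 on the E18.5 arrays. After birth the ratios were 1.13 and 0.79 on the P5 arrays and 2.14, 0.03 and 0.89 on the P56 arrays. The P56 arrays spread widely, with an SD of 1.06, from just above the E18.5 arrays to the highest value of all, and they overlapped the P5 arrays. The rise to E18.5 was 3.18 ± 0.38 (adjusted p = 3.03e-05), 9.09-fold. The further difference at P5, 1.11 ± 0.42, was not called (adjusted p = 0.103), and it was called without P56 replicate 1 (adjusted p = 0.00492) or replicate 2 (0.0223), which widen the shared estimate of the spread. P56 was 1.17 ± 0.38 above E18.5 (adjusted p = 0.0165), and 0.61 above it without P56 replicate 1.

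Pcx, a mitochondrial enzyme, had its highest ratios at E18.5. It was -2.36, -2.42 and -2.39 on the E14.5 arrays, 0.22, 0.31 and 0.32 on the E18.5 arrays, 0.15 and 0.11 on the P5 arrays and -0.64, -0.38 and -0.51 on the P56 arrays. No 2 stages overlapped, and the 2 stages around birth differed by only -0.16 (95% interval -0.38 to 0.06, adjusted p = 0.325). The rise to E18.5 was 2.67 ± 0.09 (adjusted p = 2.1e-09), and P56 lay 0.64 ± 0.10 below P5 (log2 fold change -0.64, adjusted p = 0.000312).

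Slc37a4 and Slc2a2, which encodes the glucose transporter GLUT2 of the hepatocyte membrane, ran most alike of any pair among the 9 genes. Slc37a4 was -3.29, -3.43 and -3.32 on the E14.5 arrays, -0.12, -0.07 and -0.06 on the E18.5 arrays, -0.49 and -0.31 on the P5 arrays and 0.98, 0.16 and 0.03 on the P56 arrays. Slc2a2 was -3.53, -3.84 and -3.26 on the E14.5 arrays, -0.87, -0.68 and -0.64 on the E18.5 arrays, -0.28 and -0.34 on the P5 arrays and 0.41, -0.59 and -0.22 on the P56 arrays. For both genes the E14.5 arrays were far below all others, and at P56 replicate 1 was the highest array. The root mean square difference of the centred ratios over the 11 arrays was 0.317 between them, against 2.38 for Fbp1 and Ppargc1a, the pair farthest apart. This measure also takes in the size of the changes, and the SD over arrays was 3.08 for Fbp1 and 0.916 for Ppargc1a. The rises to E18.5 were 3.26 ± 0.19 for Slc37a4 (adjusted p = 1.07e-07) and 2.81 ± 0.22 for Slc2a2 (adjusted p = 8.56e-07). Neither gene was called between E18.5 and P5. Slc37a4 was 0.79 ± 0.22 higher at P56 than at P5 (adjusted p = 0.0113), and 0.70 higher without P5 replicate 2, which was not called (adjusted p = 0.0843). Both were called higher at P56 than at E18.5, by 0.60 for Slc2a2 (adjusted p = 0.0284) and 0.47 for Slc37a4 (adjusted p = 0.0498), and without P56 replicate 1 these differences were 0.33 and 0.18 and not called. With each of the 11 arrays left out in turn, the call of Slc37a4 held in 2 of 11 fits and that of Slc2a2 in 8 of 11, being lost also without E18.5 replicate 1 or 2 (0.53 and 0.62).

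Gys2, the liver glycogen synthase, rose before birth, was near the reference at E18.5 and P5, and spread widely at P56. It was -2.49, -2.71 and -2.30 on the E14.5 arrays, -0.23, -0.26 and -0.12 on the E18.5 arrays, -0.10 and -0.24 on the P5 arrays and 0.02, -0.87 and -1.18 on the P56 arrays. The E14.5 arrays stood below all others, the E18.5 and P5 arrays overlapped, and P56 replicate 1 was the highest of all 11 arrays while the other P56 arrays were the lowest after E14.5. The rise to E18.5 was 2.30 ± 0.24 (adjusted p = 1.02e-05), and the change to P5 was 0.03 (95% interval -0.55 to 0.61). P56 was not called against P5 (-0.50 ± 0.27, adjusted p = 0.143) or E18.5 (-0.47 ± 0.24, adjusted p = 0.101). Without P56 replicate 1 both became called, at -0.85 and -0.82.

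Pygl, the liver glycogen phosphorylase that releases glucose units from glycogen, fell between E18.5 and P5. Its ratio was -3.06, -3.19 and -2.82 on the E14.5 arrays, 0.76, 0.86 and 0.89 on the E18.5 arrays, -0.43 and -0.59 on the P5 arrays and 1.03, 0.51 and 0.37 on the P56 arrays. Both P5 arrays lay below every array of E18.5 and P56, which overlapped each other. The rise to E18.5 was 3.86 ± 0.16 (adjusted p = 7.85e-09), the change at P5 was -1.35 ± 0.18 (adjusted p = 0.000569), and the rise to P56 was 1.15 ± 0.18 (adjusted p = 0.000263). The change at P5 kept its call in 14 of 16 alternative settings, between -1.629 and -1.038, and lost it in the authors' table and by the methods' t-test. The rise to P56 kept its call in 13 of 16, between 0.6804 and 1.525. Both held in 11 of 11 fits with 1 array left out.

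Ppargc1a encodes the coactivator PGC-1α, which raises transcription of Pck1 and G6pc in fasting liver. It was -0.90, -1.29 and -0.88 on the E14.5 arrays, 0.29, 0.37 and 0.63 on the E18.5 arrays, 1.76 and 1.04 on the P5 arrays and -0.20, -0.19 and -0.53 on the P56 arrays. The P5 arrays were the highest of all, at 263% of the reference on average, and P56 lay between E14.5 and E18.5 without overlap. It rose by 1.45 ± 0.19 to E18.5 (adjusted p = 5.42e-05) and by 0.97 ± 0.21 to P5 (adjusted p = 0.0106). Without P5 replicate 2 the second step was 0.61 and not called (adjusted p = 0.0501). From P5 to P56 it fell by 1.71 (SE 0.21, adjusted p = 4.79e-05).

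**Figure D2:**
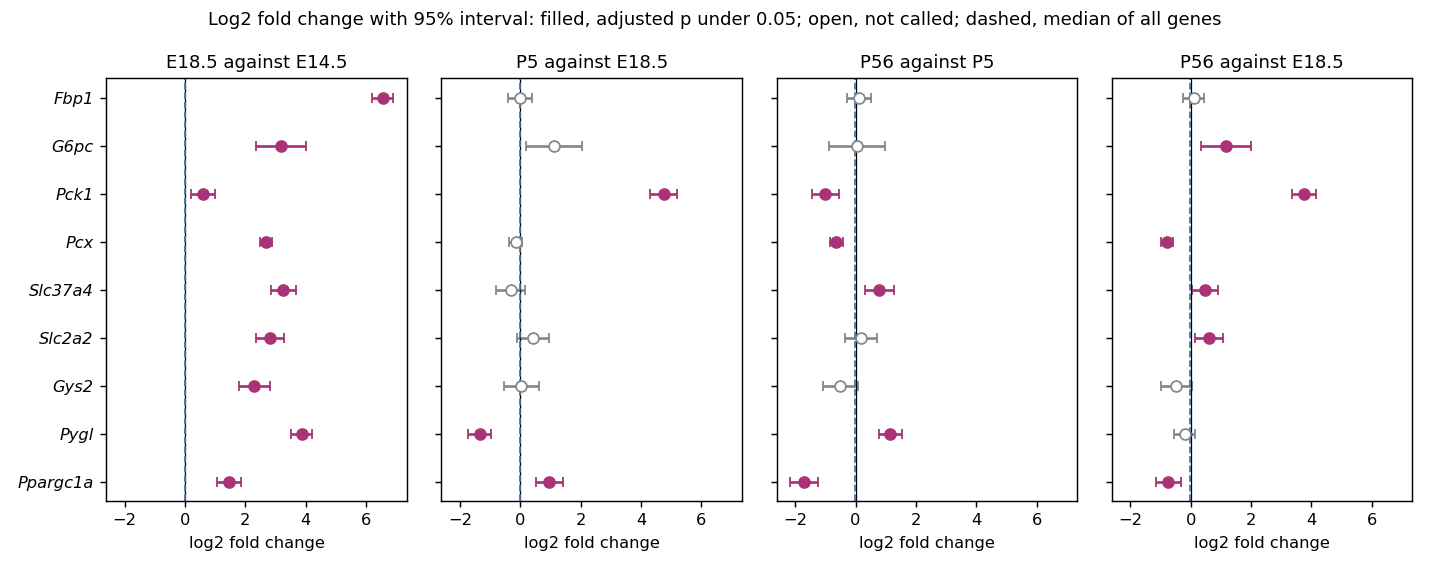
Log2 fold change (horizontal axis) with its 95% interval for each of the 9 genes (vertical axis) in 4 comparisons, filled where the adjusted p was under 0.05 and open where not, with the median of all genes as a dashed line. All 9 genes lie right of 0 at E18.5 against E14.5, and at P5 against E18.5 Pck1 stands alone at 4.75.

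Counted together, 9 of 9 genes rose from E14.5 to E18.5, where 24.6% of all genes were called higher and 22.8% lower. Their median log2 fold change was 2.81, against -0.01 over all genes. Between E18.5 and P5, Pck1 and Ppargc1a were higher and Pygl lower, beside 7.32% of all genes called higher and 6.4% lower, and the median of the 9 genes was 0.03. Between P5 and P56, Pygl and Slc37a4 were higher and Pck1, Pcx and Ppargc1a lower, beside 20.9% of all genes higher and 24.7% lower. Between E18.5 and P56, Pck1, G6pc, Slc2a2 and Slc37a4 were higher and Pcx and Ppargc1a lower, beside 31.2% and 33.6%. The shares for P56 rest on the scaling: of all genes called, 45.7% were higher at P56 than at P5 after loess and 6.84% after median centring, which moved the median of all genes by -0.45, and against E18.5 these shares were 48.1% and 14.9%. Over the whole span, a comparison added after the data had been seen, 9 of 9 genes were higher at P56 than at E14.5, where 36.1% of all genes were called higher and 34.8% lower. These increases ran from 0.72 for Ppargc1a to 6.64 for Fbp1, and that of Ppargc1a was -0.060 after median centring.

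Other cell types moved over the same stages. Of the 13 hepatocyte markers, 13 rose from E14.5 to E18.5, with a median of 2.95. Of 6 hepatoblast markers, 3 were higher there and 0 lower, with a median of 0.64. Of 13 erythroid markers, 3 were higher and 2 lower, with a median of -0.02, and of 12 other haematopoietic markers 8 were higher and 2 lower, with a median of 1.66. The erythroid markers' summed share of the Cy5 signal was 0.6% to 0.727% at E14.5 and 0.548% to 0.605% at E18.5. Their mean log2 ratio to the adult reference was 3.055 to 3.231 on the E14.5 arrays and 3.154 to 3.265 on the E18.5 arrays. Of 11 macrophage markers, 11 were higher, with a median of 1.29. In RNA of a tissue, fewer cells of a type and less RNA per cell cannot be told apart, and the part of cell composition in the rise to E18.5 was not tested. Between E18.5 and P5, where Pck1 rose, 2 of 13 hepatocyte markers were higher and 5 lower, with a median of -0.22, 3 of 13 erythroid markers were lower, and 7 of 12 other haematopoietic markers were lower and none higher, with a median of -0.61. Between P5 and P56 the 13 erythroid markers all fell, with a median of -2.74, and up to 7 of them were not well above background on a P56 array. The 12 other haematopoietic markers also all fell there, with a median of -1.26, and 5 of 6 hepatoblast markers fell, with a median of -3.52. The part of these changes in the members' values was not tested. The arrays were read in 4 scans, and E18.5 replicate 1 shared its scan with E14.5. Within that scan the differences were 6.54 for Fbp1, 3.78 for Pygl, 1.32 for Ppargc1a and 0.55 for Pck1. Within the scan that P5 replicate 3 shared with P56, P56 differed from it by -0.92 for Pck1, 1.23 for Pygl and -1.35 for Ppargc1a. No scan held both E18.5 and P5, so scan and stage cannot be told apart there, and Pck1 was 4.83 and 4.67 above the E18.5 mean on the P5 arrays of 2 different scans.

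Slc2a2, Pygl and Ppargc1a had a second, dimmer probe, shown here by the first 30 of its 60 bases beside the brighter one. Probe positions are those of the array files, on build mm7, for which no annotation was at hand, so the exon or untranslated part that a probe meets is not given. The probes of Slc2a2 lie at chr3:28543803-28543862 and, over a span of 709 bases, at chr3:28542040-28542748. Those of Pygl lie at chr12:68131860-68131919 and chr12:68145287-68145346, and those of Ppargc1a at chr5:50830839-50830898 and chr5:50828808-50828867, on the minus strand.
Slc2a2 brighter probe: tagtttctttgatgtattttgcaaggttaa
Slc2a2 dimmer probe: tggataaattcgcctggatgagttacgtga
Pygl brighter probe: cttccctgattctgtttttgtcattgaata
Pygl dimmer probe: ctaggcgttgaataattctctagattgata
Ppargc1a brighter probe: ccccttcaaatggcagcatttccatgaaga
Ppargc1a dimmer probe: attcatttatcaccagcatattgtgttctg
For Slc2a2 and Ppargc1a, in each comparison called on the brighter probe, the dimmer probe differed in the same direction and by less. At P56 against E18.5 the dimmer probe was not called for either gene. It differed there by 0.35 for Slc2a2 and -0.24 for Ppargc1a (limma, adjusted p over all probes = 0.131 and 0.214). For Slc2a2 the rise to E18.5 was 1.63 on the dimmer probe, against 2.81. For Ppargc1a the dimmer probe rose by 0.75 to E18.5 and 0.66 to P5 (adjusted p over all probes = 0.0026 and 0.036) and fell by 0.90 to P56 (adjusted p = 0.0019). The dimmer Pygl probe, which the array assigns to a cDNA clone, was well above background on 7 of 11 arrays and on no E14.5 array. Its measured ratio was 1.01 higher on the E18.5 arrays (adjusted p = 0.0029), where the E14.5 value is only a bound, and from there to P5, where it was well above background on 1 of 2 arrays, it differed by -0.73 (adjusted p = 0.081). The remaining probes were well above background on all 11 arrays. They lie at chr13_random:822321-822380 for Fbp1, chr11:101486672-101486731 for G6pc, chr2:172903552-172903615 for Pck1, chr19:4516443-4516502 for Pcx, chr9:44337249-44337307 for Slc37a4 and chr6:142510377-142510436 for Gys2.

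**Figure D3:**
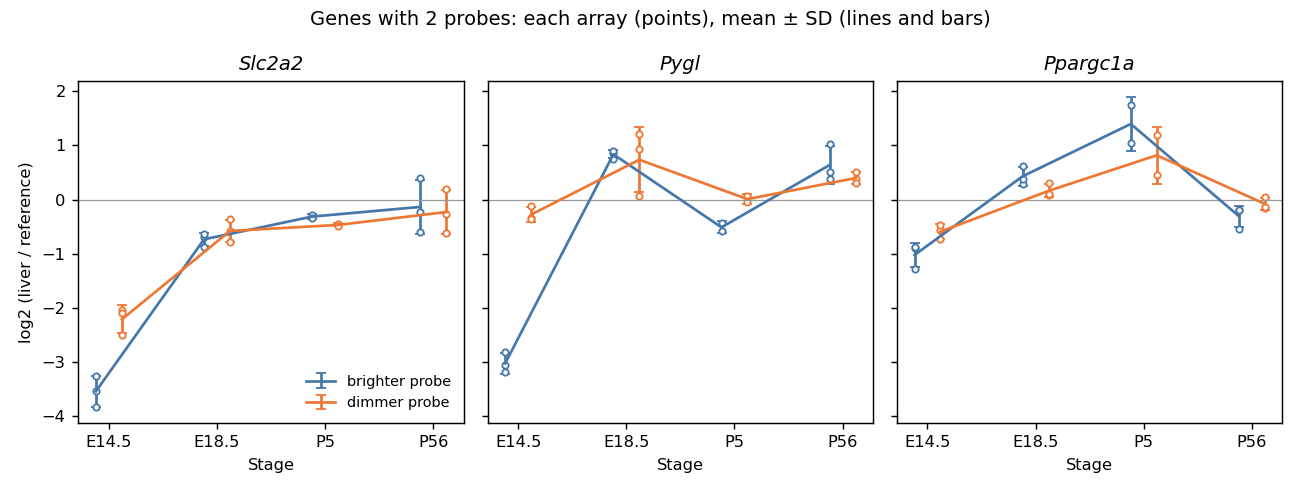
Log2 ratio of liver to the adult reference (vertical axis) by stage (horizontal axis) for the genes with 2 probes, with each array as a point and the mean and SD as lines and bars, the brighter probe in blue and the dimmer in orange. For Pygl the dimmer probe starts at -0.28 at E14.5, where the brighter probe starts at -3.03.

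Genes of the same pathways were counted from lists of gluconeogenesis and its feeders, glycogen synthesis, glycogen breakdown and regulators. At E18.5 against E14.5, 17 of 28 tested gluconeogenesis and feeder genes were higher and 2 lower (median 0.82), as were 10 and 2 of 19 glycogen synthesis genes (0.63), 3 and 0 of 6 glycogen breakdown genes (0.33) and 21 and 3 of 36 regulators (0.48). Over all genes tested, 24.6% were called higher there and 22.8% lower. Among the largest rises were those of Pfkfb1 (3.77), the liver enzyme that makes and removes fructose-2,6-bisphosphate, Gbe1 (3.64), the glycogen branching enzyme, and Hsd11b1 (3.31), which regenerates active glucocorticoid. The largest falls were those of the lactate dehydrogenase subunit Ldhb (-1.97), the protein phosphatase 1 catalytic subunits Ppp1cc (-0.68) and Ppp1ca (-0.52), and G6pc3 (-0.62). The medians of the 4 lists lay below that of the 9 genes and above the -0.01 of all genes.

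At P5 most glycogen genes were not called. Of 19 glycogen synthesis genes 6 were lower and 3 higher than at E18.5, and of 6 breakdown genes 2 were lower and none higher, beside 6.4% of all genes lower and 7.32% higher. Over the 4 pathway lists 17 genes were higher and 13 lower. The lower ones numbered 2 in the authors' table and by the methods' t-test, 8 after median centring and 6 without P5 replicate 3, and the higher ones 6, 2, 16 and 11. Among the glycogen synthesis genes the largest fall was that of Stbd1 (-1.61, adjusted p = 0.000178, named D5Ertd593e on the array), which anchors glycogen to membranes. Next came Ppp1r3c (-1.37, adjusted p = 0.00045), which targets protein phosphatase 1 to glycogen, and Gbe1 (-1.33, adjusted p = 5.16e-05). The breakdown genes that fell included the brain phosphorylase Pygb (-0.56), named after its value was seen. Gbe1 went from a ratio of 0.24 at E18.5 to -1.09 at P5 and 1.00 at P56, where 1 array had no value, and Stbd1 from 0.43 to -1.18 and 0.23. This was the course of Pygl, with P5 lower than the stages on both sides, whereas Gys2 changed by 0.03 at P5. Pfkfb1 also fell, by 1.24 on the log2 scale. Among gluconeogenesis and feeder genes 8 of 28 were higher at P5 and 3 lower. The largest rises were those of Got1 (1.84), the cytosolic aspartate aminotransferase, the serine dehydratase Sds (1.79) and the mitochondrial glycerol-3-phosphate dehydrogenase Gpd2 (1.19), and of the regulators Hsd11b1 rose most (1.39).

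At P56 against P5, 7 of 28 gluconeogenesis and feeder genes were higher and 11 lower, as were 7 and 4 of 19 glycogen synthesis genes, 1 and 1 of 6 breakdown genes and 6 and 10 of 36 regulators, beside 20.9% of all genes higher and 24.7% lower. Over the 4 lists these 21 higher and 26 lower genes became 6 and 58 after median centring. Among the largest rises were those of the alanine aminotransferase Gpt2 (2.62), Gbe1 (2.09) and the glucagon receptor Gcgr (1.59). The largest falls were those of the monocarboxylate transporter Slc16a1 (-2.40), the lactate dehydrogenase subunits Ldha (-2.04) and Ldhb (-1.84, with 1 P5 array without a value), and Pck2 (-1.86). Against E18.5, P56 was higher for 13 and lower for 10 of the 28 genes, with Sds at 3.00 and Gpt2 at 2.35, and with Ldha at -2.71, Pck2 at -2.61 and Slc16a1 at -2.55. The corresponding counts were 6 and 9 of 19 glycogen synthesis genes, 1 and 3 of 6 breakdown genes and 10 and 10 of 36 regulators, among them Gcgr at 2.37, beside 31.2% of all genes higher and 33.6% lower. Over the 4 lists 30 were higher and 32 lower, and 15 and 51 after median centring.

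The liver isoenzymes and their counterparts in other tissues or compartments differed in course at some steps. Pck2, the mitochondrial form of phosphoenolpyruvate carboxykinase, had mean ratios of 1.85 and 2.31 at the embryonic stages, 1.56 on the P5 arrays and -0.30 on the P56 arrays. At P56 it was well above background on 2 of 3 arrays. It was above the adult reference at the 3 earlier stages, where Pck1 was below it, and it fell where Pck1 rose most, by 0.75 between E18.5 and P5 (adjusted p = 0.0261). G6pc3, the widely expressed glucose-6-phosphatase, fell by 0.62 between E14.5 and E18.5, where G6pc rose. Pygb was not called between E14.5 and E18.5 (0.22, adjusted p = 0.11) and was lower at P5 and P56 than at E18.5, by -0.56 and -1.15 on the log2 scale, with 1 of 3 P56 arrays well above background. Pygl was also lower at P5 than at E18.5, by -1.35, but had risen by 3.86 between E14.5 and E18.5. These differences between isoenzymes were not themselves tested.

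**Figure D4:**
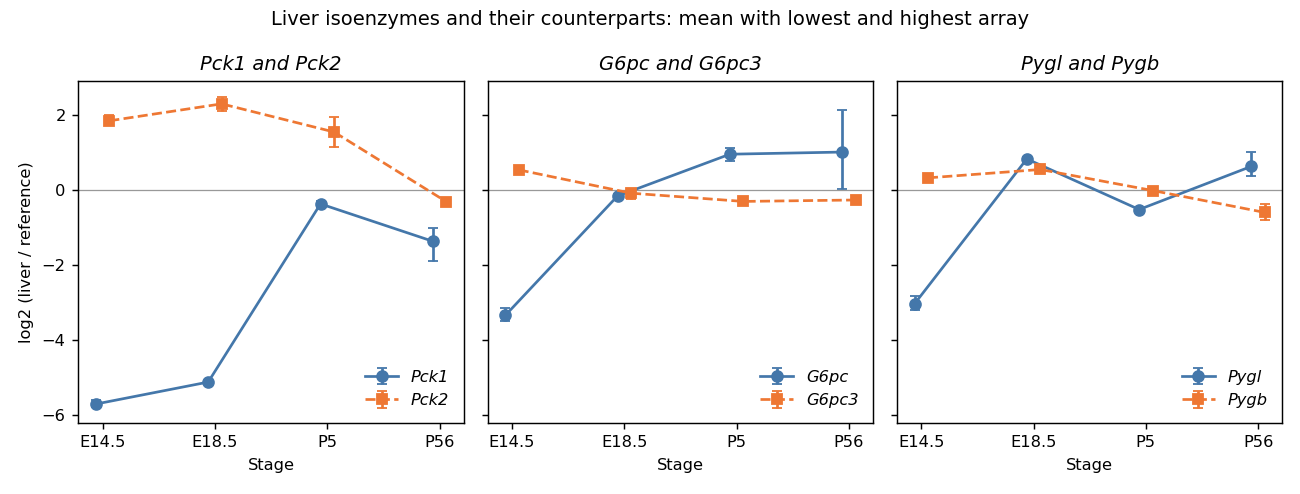
Mean log2 ratio of liver to the adult reference (vertical axis) by stage (horizontal axis), with bars to the lowest and highest array, for Pck1 and Pck2, G6pc and G6pc3, and Pygl and Pygb. Pck2 runs from 1.85 at E14.5 to -0.30 at P56 while Pck1 runs from -5.70 to -1.36.

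Genes with the most similar course were found by the root mean square difference over the 11 arrays after each gene was centred on its mean, a description of these arrays without a test. Fbp1 was nearest to the urate oxidase Uox (0.524) and to Hao1 (0.614). Pck1 had no near match: the closest were Sult1c2 (0.703), Cyp3a25 (0.744) and the tyrosine aminotransferase Tat (0.821), which is 1 of the 13 hepatocyte markers. Slc37a4 was nearest to transthyretin, Ttr (0.224), another of these markers, and Pygl to Csad (0.267). Pcx was nearest to the coagulation factor F10 (0.156) and to Clec4f (0.164), a macrophage marker. Ppargc1a, whose course peaked at P5, was nearest to the mitochondrial protease subunit Clpx (0.222), the ketone body enzyme Bdh1 (0.224) and Flt1 (0.27).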

How the data were processed

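Liver RNA of 4 stages was hybridised with Cy5 against a Cy3 reference of adult liver on 11 Agilent 4x44k arrays. The deposited scanner files hold, for both channels, the intensity of every spot and of its local background, written by Feature Extraction (version 9.5.1.1) and not yet normalized. A second deposited file gives the authors' normalized log2 ratios per gene, used as an alternative only. Its values were set against the arrays: r was 0.794 to 0.92 and the column medians lay between -0.0555 and 0.0464.

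Background was removed from mean spot signals with normexp (offset 50), and the log2 ratio of Cy5 to Cy3 was then normalized within arrays by loess. The 1639 control spots and outlier spots were left out and spots of 1 probe averaged. Probes had to be well above background in Cy5 throughout at least 1 stage, with no more than 1 array of a stage missing, and each gene was represented by its brightest probe. This gave 23525 probes of 16704 genes, 263 with a missing value, which were fitted with the value missing. Stages were compared with limma (version 3.58.1, R version 4.3.3), using lmFit and eBayes on all arrays without a block, with Benjamini-Hochberg adjustment over all genes and a threshold of 0.05. P-values measure the spread between arrays. The fit was tested on simulated data.

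The 9 genes, the pathway and marker lists, the motifs and the tests were chosen with earlier results of these data known. The text names all 9 genes with every probe, up to 4 largest rises and falls of the pathway lists per comparison among called genes whose arrays did not overlap, and up to 3 nearest genes by course. Array names were matched to listed genes by symbol or RefSeq synonym. Motifs were searched with Python 3.11.15 in the RefSeq promoter table. Alternatives covered background correction, normalization, filters, probe choice, the authors' table, blocks, array weights, the methods' t-test and leaving out each array. A few genes that these rules name are not reported here. The tumor and human samples were not analysed here.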

Additional observations from a re-analysis of the deposited data

How the results depend on the processing

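Of 729 values of single genes under alternative settings, 664 had the same direction and the same call, 40 lost the call, 6 gained it and 19 changed sign. Of 495 values with 1 array left out these numbers were 463, 18, 5 and 9. Of the values that changed sign, 1 had been called and none was called under the alternative. All 9 genes kept the rise between E14.5 and E18.5 in direction, and 8 or 9 were called in every setting. The small rise of Pck1 there was not called after median centring (0.41, adjusted p = 0.289), with Cy5 alone (0.43, adjusted p = 0.0848) or in the authors' table (0.75, adjusted p = 0.0802).

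Values near 0 changed sign. For Fbp1 the P5 value against E18.5 was 0.13 with Agilent's processed signals, 0.074 with Cy5 alone, 0.014 in the authors' table, 0.40 after median centring, 0.0051 without background correction and 0.067 with the replicate block, and -0.22 to 0.20 with 1 array left out. For Fbp1 at P56 against E18.5 it was -0.051 with processed signals, -0.097 with array weights and -0.080 to 0.23 with 1 array left out, and against P5 it was -0.18 with processed signals, -0.068 with array weights, -0.0063 in the authors' table, -0.19 after median centring and -0.098 to 0.33. For G6pc at P56 against P5 the values were -0.094 with processed signals, -0.066 with array weights, -0.68 after median centring, -0.15 with the replicate block and -0.50 to 0.55 with 1 array left out. For Gys2 at P5 against E18.5 they were -0.036 to 0.10 and for Slc2a2 at P56 against P5 -0.093 to 0.41 with 1 array left out. After median centring Pcx was 0.11 at P5 against E18.5, Slc2a2 -0.55 at P56 against P5, and Ppargc1a -0.060 at P56 against E14.5.

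Counts depended on the setting more than values did. Genes called between E18.5 and P5 numbered 2292, and 1429 with processed signals, 1485 with array weights, 292 in the authors' table, 1474 after median centring, 61 by the methods' t-test and 928 to 3765 with 1 array left out, the lowest without P5 replicate 3 and the highest without P5 replicate 2. The authors' table gave 4798 genes between E14.5 and E18.5 in place of 7909. Between P5 and P56 the 7615 genes became 5040 in the authors' table, 4995 with only the 2 stages in the fit, 298 by the methods' t-test and 4743 to 8213 with 1 array left out, the lowest without P5 replicate 2.

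Of the 9 genes, 1 was higher and 0 lower at P5 by the methods' t-test and in the authors' table, where Pck1 kept its call (7 genes had an unadjusted p under 0.05 by that test), and 1 to 3 were higher with 1 array left out. At P56 against P5, 0 were higher and 0 lower by that test (3 with an unadjusted p under 0.05), 1 was higher with processed signals, array weights or only the 2 stages fitted, 0 in the authors' table or after median centring, and 1 to 2 with 1 array left out. At P56 against E18.5, in place of 4 higher there were 2 with processed signals, the mean over probes or the scan as a random block, 1 in the authors' table, after median centring or by that test, and 2 to 4 with 1 array left out. In place of 2 lower there were 4 with array weights, 1 in the authors' table and 2 to 4 with 1 array left out, the 4 without P56 replicate 1, when Gys2 and Pygl (-0.39) were also called. Slc37a4 at P56 against E18.5 was called in 6 of 16 settings, with adjusted p from 0.0399 to 0.359.

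Median centring moved the median of all genes at P56 by -0.45 against P5, -0.42 against E18.5 and -0.37 against E14.5, and Agilent's processed signals by -0.17, -0.22 and -0.11. Processed signals gave 36.1% higher among all genes called at P56 against P5 and 39.3% against E18.5. The cause of these differences was not tested.

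Over 15 pairs of arrays with the same replicate number the correlation of deviations was -0.306 to 0.187, and 1 was above 0.1. Over 30 pairs with different numbers it was -0.458 to 0.457, and 10 were above 0.1. The deviations were taken from stage means of few arrays and so depend on each other. Whether the replicate numbers pair the arrays is therefore not settled. With the replicate block 7536, 1732, 6853 and 10487 genes were called in the 4 comparisons in order of age, and the counts of the 9 genes were as without it. With 2 arrays at P5 and signals of the dimmer Pygl probe near background, small changes of these genes could not be resolved.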

Other observations

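For 8 of the 9 genes the SD was widest at P56, and for Ppargc1a it was widest at P5 (0.51, against 0.20 at P56). How many of all genes had their widest SD at P56 was not counted. Over all genes r between replicates was 0.827 to 0.937 at P56 and 0.901 at P5, against 0.969 to 0.99 within the embryonic stages. Replicate 1 was the highest of the 3 P56 arrays for 6 of the 9 genes, the exceptions being Pck1, Pcx and Ppargc1a. The share of all genes with replicate 1 highest was not counted. Of the P56 arrays, replicate 1 also had the most spots well above background, 23079 against 16790 and 20131. The SD at P56 was 1.06 for G6pc, 0.63 for Gys2, 0.52 for Slc37a4 and 0.51 for Slc2a2, against 0.08, 0.07, 0.04 and 0.12 at E18.5. The mean ratio of the 13 hepatocyte markers was -0.59, -1.04 and -0.74 on the 3 P56 arrays, replicate 1 being the highest there too. The feeding state and time of day of the animals are not given in the sources used here, and their part in this spread was not tested.

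Over the whole span from E14.5 to P56, the largest rises among the pathway genes included those of Hsd11b1 (5.02), Gbe1, whose mean ratio went from -3.40 to 1.00 with 1 P56 array without a value, and Gcgr (3.84). The largest falls were those of Ldhb (-2.65), Pck2 (-2.16), Slc16a1 (-1.57) and the cAMP-responsive transcription factor Creb1 (-1.25). The glucagon receptor rose at each step, with mean ratios of -3.71, -2.24, -1.46 and 0.13 in order of age, and Hsd11b1 had -5.39, -2.08, -0.69 and -0.37, with the last step not called (adjusted p = 0.0731).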
